A study of Mus musculus with 9 samples.

Results

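The guanylate-binding proteins (GBPs) were followed through liver RNA of aged mice whose hepatocytes were edited at Ccnd1, the gene of the cell cycle regulator cyclin D1. Members were the rows of the deposited table whose symbol is Gbp2, Gbp3, Gbp4, Gbp5, Gbp6, Gbp7, Gbp8 or Gbp9. All 8 were found among 27179 genes, and all 8 were among the 12993 genes averaging 10 or more normalized counts (reads scaled by a size factor for each library) that entered the test across all genes. The family was proposed with its values in the comparison below already known, so that comparison is given for the members as a description, without a test of its own.

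Both groups were wild-type C57BL/6J mice on normal chow, injected retro-orbitally at 17 months of age with 3e11 vector genomes of AAV8 per mouse. In both, the vector drove saCas9, a small Cas9 nuclease, from the hepatocyte promoter TBG and a guide RNA from the U6 promoter. The control group carried a guide against the Rosa26 locus (sgRosa26, 4 libraries, called A to D in column order). The other group carried a guide against Ccnd1 (sgCcnd1, 5 libraries, E to I). A piece of the m-lobe was frozen 3 weeks later and its poly(A) RNA sequenced in bulk, so edited hepatocytes and the other cells of the lobe, which the TBG promoter does not serve, were measured together. In such a sample, fewer cells of a type and less RNA per cell cannot be told apart.

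GBPs are large GTPases of the dynamin superfamily. Their genes are among those most strongly induced by interferon-gamma, which signals through JAK kinases, and many also respond to type I interferons. The proteins assemble on the membranes of vacuoles that hold pathogens and on bacterial surfaces, and they promote caspase-11 and inflammasome responses. Mouse GBP2 and GBP5 carry a prenylation signal that anchors them in membranes.

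Depth lay between 10.8 and 20.2 M reads assigned to genes per library. Ccnd1 was at 744 ± 110 normalized counts in sgRosa26 (SD, n = 4) and 362 ± 40.6 in sgCcnd1 (SD, n = 5), 48.6% of the control, a difference of -1.03 on the log2 scale with a standard error (SE) of 0.11 (limma adjusted p = 0.0116, an empirical Bayes linear model over all genes, Benjamini-Hochberg). That call was lost without library B, D, F, H or I (limma adjusted p from 0.0559 to 0.0852), while the log2 fold change of Ccnd1 in those fits stayed between -1.02 and -0.96. Ccnd1 was also called by edgeR (adjusted p = 0.00893, and 0.0559 without H) and by DESeq2 (adjusted p = 9.13e-12, and 1.06e-08 without H). Hepatocyte markers (Alb, Apoa1, Ttr and 5 others) were abundant in all 9 libraries, as the liver label says. Library H of the sgCcnd1 group stood apart in its Y-linked genes, of which 4 summed to 2.00 normalized counts there, and to between 1619 and 2834 in the other 8 libraries. Member values are therefore also given without H. The labels do not say that mice of a group came from separate litters or cages, and p-values measure the spread between these libraries only.

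The 11 Gbp genes of the table form 2 clusters in the mouse genome (positions from RefSeq, GRCm38.p6). On chromosome 3, on the plus strand, lie Gbp5 (chr3:142496934-142522344), Gbp7 (chr3:142530336-142550151), Gbp3 (chr3:142560016-142573213), Gbp2b (chr3:142594816-142619179) and Gbp2 (chr3:142620663-142638008). On chromosome 5, on the minus strand, lie Gbp8 (chr5:105012513-105053609), Gbp9 (chr5:105076464-105110357), Gbp4 (chr5:105115767-105139586), Gbp10 (chr5:105215699-105239533), Gbp6 (chr5:105270702-105295871) and Gbp11 (chr5:105323026-105346476). The GENCODE M21 annotation types Gbp11 as a polymorphic pseudogene. The 8 members thus divide into 4 on each chromosome, and Gbp2b, Gbp10 and Gbp11 are family genes that are not members.

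Promoter sequences of the chromosome 3 members are shown because interferon-induced genes are switched on through the interferon-stimulated response element (ISRE), bound by IRF factors, and through the interferon-gamma-activated GAS element. RefSeq promoters matched Gbp2, Gbp3, Gbp5 and Gbp7. None matched the members on chromosome 5, whose promoters were not searched. The 250 bases before each transcription start were searched on both strands for the ISRE core, which is GAAA, any 2 bases and GAAA again (TTTC, 2 bases and TTTC on the other strand), and for the GAS consensus TTCNNNGAA, which reads alike on both strands. The following 30-base windows, 5′ to 3′ on the plus strand of chromosome 3, hold the ISRE match, in capitals, of each of these genes and of Gbp2b.
Gbp2 (chr3:142620594-142620623): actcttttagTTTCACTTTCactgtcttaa
Gbp3 (chr3:142559989-142560018): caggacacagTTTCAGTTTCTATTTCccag
Gbp5 (chr3:142496759-142496788): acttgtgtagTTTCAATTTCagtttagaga
Gbp7 (chr3:142530273-142530302): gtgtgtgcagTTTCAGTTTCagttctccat
Gbp2b (chr3:142594700-142594729): gtacttctaaTTTCACTTTCttctttatca

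An ISRE core was present in a window of each of the 4 member genes with a RefSeq promoter. Over all 32851 promoter windows of the same length, counted singly rather than by gene, the share was 2.98%. It began 59 bases before the start in Gbp2, 53 in Gbp7 and 165 in Gbp5. GENCODE M21 places the start of Gbp2 at base 142620602, upstream of the RefSeq start, which puts this match just inside the annotated gene. It also places the start of Gbp5 further upstream, at base 142493978, so the matches of Gbp5 lie inside the annotated gene too, outside its exons. In Gbp3 there were 2 overlapping matches, which began 45 and 39 bases before the first of the 2 starts in the promoter table. The window at the other start held no match to these letters. A GAS match was present in 7.02% of all windows, and Gbp5 and Gbp7 each held 2 of them. Both elements together occurred in 0.332% of all windows. The whole 250-base window of Gbp7, with its 2 GAS matches followed by the ISRE core in capitals, reads as follows.
Gbp7 (chr3:142530086-142530335): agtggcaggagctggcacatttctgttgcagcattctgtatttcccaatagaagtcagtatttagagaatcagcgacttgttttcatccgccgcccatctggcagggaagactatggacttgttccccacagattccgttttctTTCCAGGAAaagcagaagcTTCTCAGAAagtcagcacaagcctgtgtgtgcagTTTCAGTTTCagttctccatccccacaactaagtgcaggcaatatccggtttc

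Gbp2 was the member with the largest difference. Its protein is recruited to parasite-containing vacuoles and is one of the prenylated GBPs. Its level was 213, 410.2, 158 and 124 normalized counts in A, B, C and D, and 114, 92.2, 78.3, 72.0 and 128 in E to I. Library B stood well above the other controls. The lowest control, D, lay just under the highest sgCcnd1 library, I, so the groups overlapped by that pair only. The means were 226 ± 128 in sgRosa26 (SD, n = 4) and 96.9 ± 23.7 in sgCcnd1 (SD, n = 5). The difference was -1.10 on the log2 scale (SE 0.29) by limma (log2 of normalized count + 1), or -0.76 without B and -1.0 without H.

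Gbp3 was the member with the smallest standard error. Its level was 166, 231, 160.5 and 201 normalized counts in A to D, and 100.6, 107, 123, 94.0 and 114 in E to I. Every sgCcnd1 library lay below every control. The means were 189.5 ± 32.7 (SD, n = 4) and 108 ± 11.4 (SD, n = 5), with a difference of -0.80 on the log2 scale (SE 0.13). Gbp3 was the only member whose groups did not overlap, and this also held without H. Without library I, 5 members had groups that did not overlap. Over all genes tested and all 9 libraries, 1.97% had every sgCcnd1 library below every control. That share was not computed with a library left out.

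Gbp5, whose prenylated protein is known to promote NLRP3 inflammasome assembly, was the member of lowest level. It was at 48.0, 76.3, 59.1 and 45.6 normalized counts in A to D, and at 53.4, 30.4, 33.3, 22.99 and 49.7 in E to I. Libraries E and I lay within the control range and F, G and H below it. The difference was -0.62 on the log2 scale (SE 0.25), and -0.46 without H.

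Gbp7, known for a part in oxidative defence in macrophages, had the highest counts of the family. It was at 408, 428, 299 and 335 normalized counts in A to D, and at 268, 239, 239.9, 248 and 376 in E to I. Library I stood apart from the other 4 sgCcnd1 libraries, which lay between 239 and 268 and below all controls. The difference was -0.43 on the log2 scale (SE 0.15).

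On chromosome 5, Gbp4, reported to restrain the interferon regulatory factor IRF7, was at 119, 159.5, 87.3 and 120.4 normalized counts in A to D. In E to I it was at 103, 59.1, 54.8, 55.0 and 104. Libraries F, G and H lay below all controls, while E and I lay within the control range. The difference was -0.72 on the log2 scale (SE 0.24).

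Gbp6 was at 186, 286, 132 and 220.5 normalized counts in A to D, and at 128, 96.7, 117.5, 83.0 and 167.5 in E to I. Only I reached the control range, and the difference was -0.78 on the log2 scale (SE 0.23). Gbp6 is the member whose reads are hardest to assign. Of the 75-base stretches of its longest protein-coding transcript, 57.2% also occur in another Gbp gene and 51.7% in Gbp10. This share was at most 7.97% for the other 7 members and 0% for Gbp5. In addition, 29.0% of the exon bases of Gbp6 lie in Gm43302, a gene model of the GENCODE annotation on the same strand. No row of the deposited table carries that symbol. Of the exon bases of Gbp7, 11.3% lie in the same-strand pseudogene Gm43802. How reads shared by such copies were treated is not given in the sources used here.

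Gbp8 and Gbp9 showed the smallest differences. Gbp8 was at 66.4, 93.8, 50.7 and 68.0 normalized counts in A to D, and at 59.5, 61.8, 45.0, 41.0 and 63.9 in E to I, with G and H below all controls. The difference was -0.35 on the log2 scale (SE 0.20), and -0.19 without B. Gbp9 was at 82.4, 92.0, 81.7 and 73.8 in A to D, and at 67.85, 47.45, 68.5, 53.0 and 85.2 in E to I, and only library I entered the control range. The difference was -0.38 on the log2 scale (SE 0.17).

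**Figure D1:**
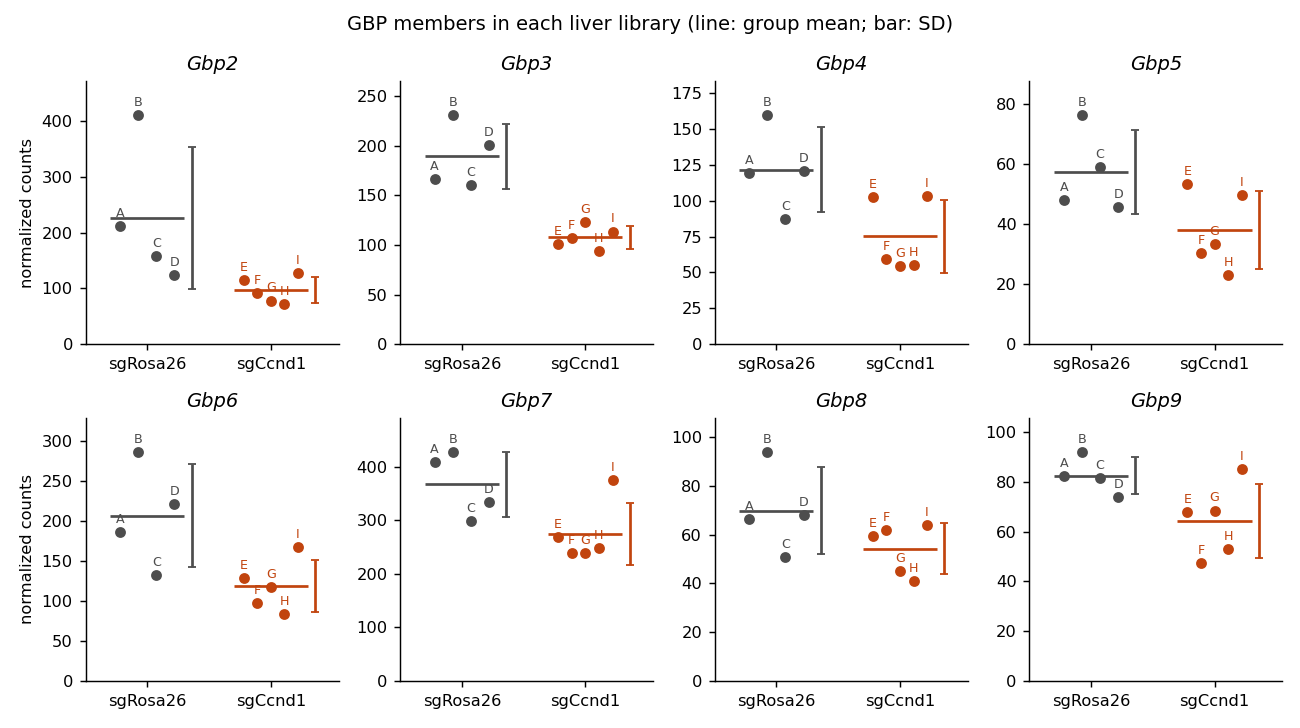
Normalized counts of each of the 8 members (linear axis from 0) in the 4 sgRosa26 libraries (dark, A to D) and the 5 sgCcnd1 libraries (orange, E to I), with the group mean as a line and the SD as a bar. With all 9 libraries the groups are separate only for Gbp3, and without I for 5 members. B is the highest control in all 8 panels, and I or E is the highest sgCcnd1 library in 7 of them.

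All 8 members had a lower mean in sgCcnd1, between 42.8% (Gbp2) and 78.1% (Gbp9) of the control mean, where 47.7% of all genes tested had a lower mean. Their median log2 fold change was -0.67, beside 0.01 over all genes tested. It was -0.54 without H and -0.53 without B. By limma, 0 of 8 members passed the adjusted threshold of 0.05 over all genes, beside 0.0077% of all genes, and 7 of 8 were lower at an unadjusted p under 0.05, beside 5.74% of all genes. That 7 became 4 without library B and 5 without F, G or H. By edgeR (quasi-likelihood) on the recovered whole reads, 0 of 8 passed, beside 0.0077% of all genes, and 7 had an unadjusted p under 0.05, beside 6.15%. By DESeq2 on those reads 2 of 8 passed, Gbp2 and Gbp3, beside 0.585% of all genes called lower. Without H, DESeq2 called 1 member, beside 0.192%. DESeq2 was not run without B, the library in which Gbp2 was highest. Because this contrast was known when the family was chosen, nothing is read from these counts.

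Of the family genes that are not members, Gbp10 was at 159 ± 82.1 normalized counts in sgRosa26 (SD, n = 4) and 87.6 ± 26.2 in sgCcnd1 (SD, n = 5). Its log2 fold change was -0.75 (limma adjusted p = 0.421), and its counts share the uncertainty of Gbp6, since 63.9% of its 75-base stretches occur in another Gbp gene. Without library B the log2 fold change of Gbp10 was -0.48. The pseudogene Gbp11 had a log2 difference of -0.45 (limma adjusted p = 0.654), which was -0.16 without B, -0.30 without E and -0.71 without H. Gbp2b, formerly called Gbp1, was at 31.3 ± 12.5 and 29.2 ± 15.5, with a log2 difference of -0.20 (limma adjusted p = 0.886) that turned to 0.12 without H and to 0.04 without D. None of these 3 genes passed the test. B, the highest control for every member, was also the highest for Gbp10 and Gbp11 and the lowest for Gbp2b.

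**Figure D2:**
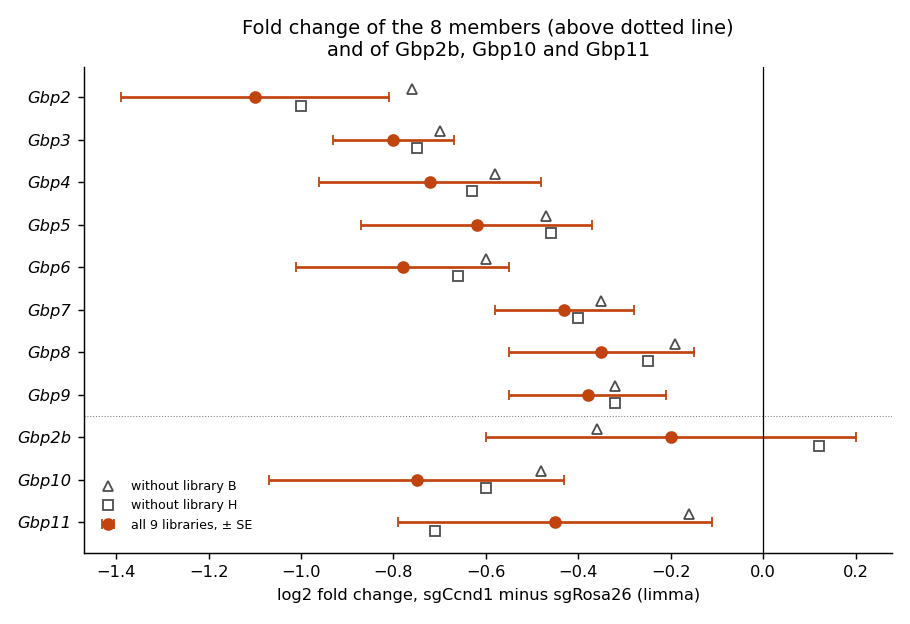
Log2 fold change (sgCcnd1 minus sgRosa26, limma) of the 8 members and, below the dotted line, of Gbp2b, Gbp10 and Gbp11, with the standard error over all 9 libraries, and the value without library B (triangles) or H (squares). All members lie below 0 in each of these fits, from -1.10 for Gbp2 to -0.19 for Gbp8 without B, whereas Gbp2b crosses 0 without H.

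Levels were compared between members per kilobase of the longest protein-coding transcript (GENCODE M21). In sgRosa26 the order was Gbp2 (89.9 ± 50.9 normalized counts per kb, SD, n = 4), Gbp6 (79.1 ± 24.7), Gbp3 (70.7 ± 12.2) and Gbp7 (65.5 ± 10.8). These neighbours differed by less than their SDs. A lower group followed, with Gbp8 at 28.3 ± 7.26, Gbp4 at 26.8 ± 6.52, Gbp9 at 18.8 ± 1.70 and Gbp5 at 18.7 ± 4.57 normalized counts per kb. The step from Gbp7 to Gbp8 was larger than either SD, and so was the step from Gbp4 to Gbp9, while Gbp8 and Gbp4, and Gbp9 and Gbp5, differed by less. In sgCcnd1 the same 4 genes formed the upper group, in the order Gbp7 (48.8 ± 10.4 per kb, SD, n = 5), Gbp6 (45.5 ± 12.5), Gbp3 (40.2 ± 4.24) and Gbp2 (38.5 ± 9.41), and Gbp8 (22.1 ± 4.25) was again the highest of the lower group. Within this upper group Gbp7 and Gbp6, and Gbp3 and Gbp2, differed by less than their SDs, while the step from Gbp6 to Gbp3 was larger than the SD of Gbp3 and smaller than that of Gbp6.

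The summed normalized counts of the 8 members were 1289, 1776, 1029 and 1189 in A to D and 895, 734, 761, 669 and 1087 in E to I. Library I was the only sgCcnd1 library above the lowest control, C. The sum was 1320.0 ± 322 in sgRosa26 (SD, n = 4) and 829.1 ± 166 in sgCcnd1 (SD, n = 5). This was 62.8% of the control, or 70.9% without B and 65.8% without H. The 4 members on chromosome 3 together stood at 61.5% of the control and those on chromosome 5 at 65.1%. Within the sum, Gbp2 made up 16.3% ± 5.21 in sgRosa26 and 11.6% ± 1.09 in sgCcnd1, with 23.1% in library B. Gbp7 made up 28.3% ± 3.15 and 33.1% ± 2.76, the largest share in both groups. The mean shares of Gbp2, Gbp3, Gbp4, Gbp5 and Gbp6 differed between groups by less than their SD in sgRosa26. Those of Gbp7, Gbp8 (5.27% ± 0.333 and 6.60% ± 1.06) and Gbp9 (6.43% ± 1.14 and 7.76% ± 0.909) were larger in sgCcnd1 by more than that SD.

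To describe how the members varied apart from the guide, each group's mean was removed from the log2 levels. The members then moved together between libraries. Averaged over the 8, library B was 0.44 above its group mean (log2) and C was 0.28 below (-0.28), while in sgCcnd1 library I was 0.40 above, E 0.20 above and H 0.35 below (-0.35). B was the highest control for 8 of 8 members, I the highest sgCcnd1 library for 6 and H the lowest for 5. Pearson's r between the deviations of 2 members, over 9 libraries, was positive in all 28 pairs, with a median of 0.68 and a range from 0.31 to 0.85. Pairs on different chromosomes had a median of 0.70, pairs within chromosome 5 of 0.74 and pairs within chromosome 3 of 0.48. These values share libraries, depth and scaling, and Gbp6 may share reads with its neighbours, so they are given without a test.

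**Figure D3:**
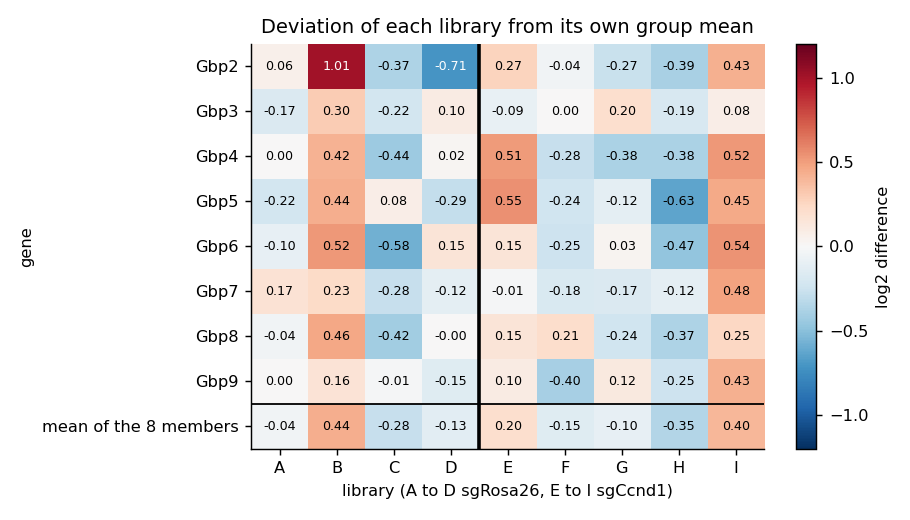
Deviation (log2) of each library from the mean of its own group for the 8 members and, in the bottom row, for their mean, with sgRosa26 libraries left and sgCcnd1 libraries right of the black line. The column of B is positive for all 8 members and that of H negative for all 8, with the largest deviation, 1.01, for Gbp2 in B.

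The 10 genes outside the family whose deviations were most like the mean of the members, out of 12982, were found by a fixed rule, and 9 of them are named here. Irgm2, an immunity-related GTPase that restrains GBP-driven caspase-11 activation, came first (r = 0.99 over 9 libraries, 0.99 without B). It was followed by Gab2 (0.97), Tmem191 (0.96), Ednrb (0.96), Trim35 (0.96), Pdgfc (0.94), Cd274, which encodes the checkpoint ligand PD-L1 (0.94), a gene without a symbol (Entrez 100861633, 0.94) and Arvcf (0.94). Over all these genes r ran from -0.94 to 0.99 with a median of -0.04, and the list is a description without a test. Between groups, Irgm2 was at 1122 ± 136 normalized counts in sgRosa26 (SD, n = 4) and 955 ± 134 in sgCcnd1 (SD, n = 5), a difference of -0.24 on the log2 scale (limma adjusted p = 0.473), smaller than that of any member.

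The pathway upstream of the GBPs was examined from ligand to transcription factor, in lists chosen by role. Counts of genes past a test are read against all genes tested, of which limma called 0.0077%, and 5.74% were lower at an unadjusted p under 0.05. Ifng, the ligand, had 0 to 3 reads per library, too few for a comparison, and 7 of 12 genes for interferons and their inducers had no read in any library. Only 1 of these 12, Il18, was abundant enough to be tested.

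No interferon receptor passed the test. Ifngr1 was at 347 ± 22.4 and 314 ± 22.8 normalized counts in sgRosa26 (SD, n = 4) and sgCcnd1 (SD, n = 5), or -0.14 on the log2 scale (limma adjusted p = 0.565). Ifngr2 had a log2 fold change of -0.20 (0.543), Ifnar1 of 0.10 (0.669) and Ifnar2 of 0.02 (0.963, limma adjusted p), and the sign for Ifnar2 changed with the scaling. Of 5 receptors tested, 0 passed limma's adjusted threshold, 0 had an unadjusted p under 0.05, and 0 passed in edgeR or DESeq2.

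Among the kinases and transcription factors, Irf1, an activator of GBP genes, had a log2 difference of -0.30 (limma adjusted p = 0.584), Irf8 of -0.39 (0.512) and Irf9 of -0.28 (0.372). Irf1 was at -0.17 without B and -0.14 without H, and Irf8 at -0.25 without B and -0.26 without H. Stat2 was at -0.15 (0.676), or -0.24 without C and -0.03 without D, Jak1 at 0.05 (0.906) and Jak2 at 0.08 (0.75), or 0.04 without B and 0.12 without A. Over the 13 genes of this list the median log2 fold change was -0.15. Of them, 0 passed in limma, 3 were lower at an unadjusted p under 0.05, and DESeq2 called 2 lower, beside 0.585% of all genes, and 1 without H, beside 0.192%.

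After removal of group means, the deviations of Irf1 had an r of 0.81 with the mean of the members, Irf8 of 0.62 and Irf9 of 0.56. Stat2 was at 0.15 and Jak1 at -0.14, and the median over the 13 genes of the list was 0.08. The receptors ranged from -0.52 to 0.26 and Jak2 was at -0.53. All are over the same 9 libraries and are given without a test.

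Inhibitors of the pathway had 0 of 8 genes past limma's threshold and 1 lower at an unadjusted p under 0.05, and edgeR and DESeq2 called 0. Socs1, an interferon-induced feedback inhibitor, was below the level needed for the test, at 12.4 ± 8.76 normalized counts in sgRosa26 (SD, n = 4) and 5.46 ± 2.87 in sgCcnd1 (SD, n = 5). Socs3 had a log2 difference of -0.16 (limma adjusted p = 0.894).

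Genes whose products act with GBPs had a median log2 fold change of 0.05 over 22 genes (0.03 without H), of which 0 passed in limma, edgeR or DESeq2. At an unadjusted limma p under 0.05, 5 were lower and 1, Gabarapl1, was higher, beside 5.22% of all genes higher. Casp4, which encodes caspase-11, was at 31.5 ± 7.98 and 17.4 ± 7.01 normalized counts (SD, n = 4 and 5), or -0.90 on the log2 scale (limma adjusted p = 0.346), with 4 of 5 sgCcnd1 libraries below all controls. Aim2, a sensor of cytosolic DNA, had a log2 difference of -0.57 (limma adjusted p = 0.372), also with 4 of 5 below. Gsdmd, the pore-forming target of the inflammatory caspases, was at -0.05 (0.895), Casp1 at -0.09 (0.913) and Nlrp3 at -0.43 (0.668), or -0.19 without A and -0.16 without F. The prenylation enzymes showed no call in any of the 3 tools, with 0 of 7 at an unadjusted limma p under 0.05. Zmpste24 was at 0.10, Icmt at 0.07 and Fnta at 0.13 (limma adjusted p from 0.642 to 0.802). Leaving out single libraries gave 0.05 (without I) to 0.16 (without C) for Zmpste24, 0.0034 (without C) to 0.12 (without D) for Icmt and 0.07 (without A) to 0.21 (without D) for Fnta. The atlastins, GTPases related to the GBPs that shape the endoplasmic reticulum, were at 0.17 (Atl3), 0.16 (Atl2) and 0.05 (Atl1), with limma adjusted p from 0.496 to 0.942, and Atl3 was at 0.28 without A and 0.07 without B.

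The immunity-related GTPases (IRGs), a second family of interferon-gamma-induced GTPases that guards vacuoles, were negative in 9 of 9 genes tested, beside 47.1% of all genes, with a median log2 fold change of -0.44 and a range from -1.22 to -0.02. Limma called 0 over all genes, 6 were lower at an unadjusted p under 0.05, and DESeq2 called 3 lower, which became 0 without library H. Irgm1 had a log2 difference of -0.44 (limma adjusted p = 0.253) and Igtp of -0.63 (0.266).

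Among other interferon-gamma targets, 29 of 31 genes were negative, with a median log2 fold change of -0.20. Limma and edgeR called 0, 13 were lower at an unadjusted limma p under 0.05, and DESeq2 called 5 lower (2 without H). The 3 most abundant were the class I antigen presentation genes B2m (-0.21, limma adjusted p = 0.585) and H2-K1 (-0.06, 0.899), and Ly6e (-0.43, 0.162), for which all 5 sgCcnd1 libraries lay below all controls. DESeq2 called Ly6e (adjusted p = 4.73e-08). In the list of type I interferon-stimulated genes, 32 of 32 were negative, with a median of -0.48. Limma and edgeR called 0, 20 were lower at an unadjusted limma p under 0.05, and DESeq2 called 10 lower (4 without H). Its most abundant genes were Bst2 (-0.14, limma adjusted p = 0.783), Apol9b (-0.48, 0.266) and Apol9a (-0.69, 0.253). Single libraries moved B2m to -0.08 (without D) and Bst2 to -0.35 (without A), -0.05 (without D), -0.08 (without E) or -0.03 (without B). These lists were chosen with earlier results on interferon-stimulated genes of the same libraries known, and are not independent evidence of a direction.

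**Figure D4:**
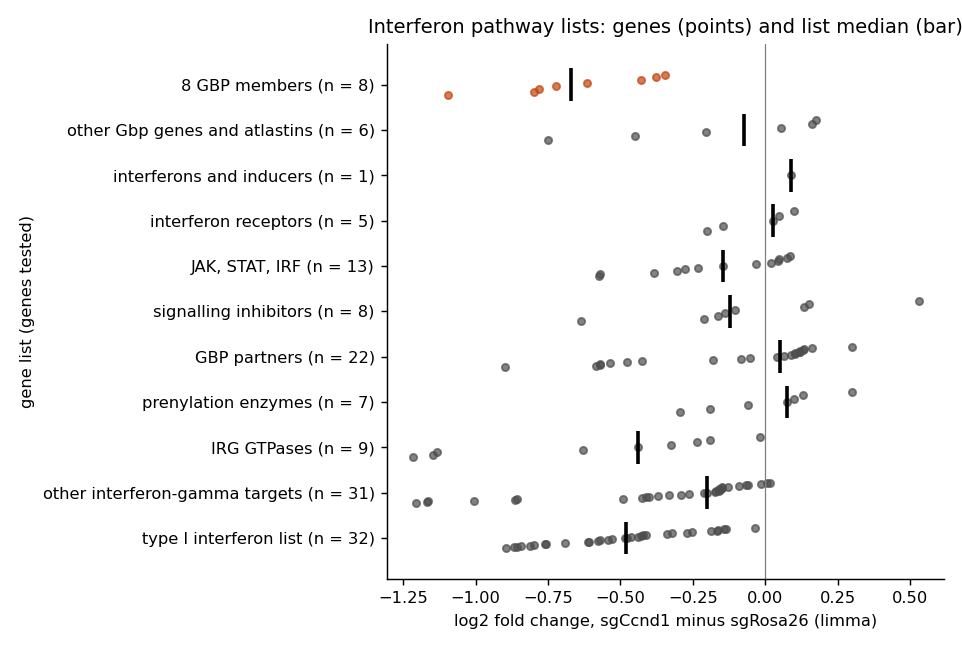
Log2 fold change (sgCcnd1 minus sgRosa26, limma) of each gene tested in the lists of the interferon pathway, with the list median as a bar and the 8 members in orange. Medians lie at -0.67 for the members, -0.48 for the type I interferon list and -0.44 for the IRG GTPases, and between -0.20 and 0.09 for the other lists.

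Some markers of other cell types were lower beside the members. The T and NK cell list, whose cells are the main source of interferon-gamma, had 12 of its 20 genes abundant enough to be tested, all 12 negative, with a median log2 fold change of -1.07 (-0.76 without B and -0.90 without H). Limma, edgeR and DESeq2 called 0 of them, and 6 had an unadjusted limma p under 0.05. Its summed level was 211.5 to 562 normalized counts in sgRosa26 and 106 to 363 in sgCcnd1, ranges that overlapped, and none of the 20 genes was at 0 in all libraries. It was highest in B (562) and lowest in H (106), as were the summed members. Among the controls, the list was lowest in A (211.5). It stood at 449.6 in C, the lowest control for the summed members. In library I, where the members were highest among sgCcnd1 libraries, it was 175, and in E it was 363. After removal of group means, the 12 tested genes of the list had a median r of 0.45 with the mean of the members. The part of these markers in the values of the members was not tested.

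Kupffer cell and macrophage markers summed to 3556 to 4712 normalized counts in sgRosa26 and 3351 to 4105 in sgCcnd1. Their median log2 fold change was -0.11 over 12 genes (-0.22 without H and -0.15 without B), with 3 lower at an unadjusted limma p under 0.05, 0 called by limma or edgeR and 1 by DESeq2. Monocyte, neutrophil and dendritic cell markers summed to 366 to 540 and to 217 to 372, with a median of -0.49 over 10 genes tested of 11 and 2 lower at an unadjusted p, and all 3 tools called 0. Endothelial markers summed to 4822 to 7152 and to 5097 to 7218, with a median of -0.06 over 13 genes (-0.02 without H and -0.04 without B). Hepatocyte markers had a median of -0.01 over 8 genes, which was 0.07 without H. Endothelial and hepatocyte markers had 0 genes with an unadjusted limma p under 0.05 and 0 called by any of the 3 tools.

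**Figure D5:**
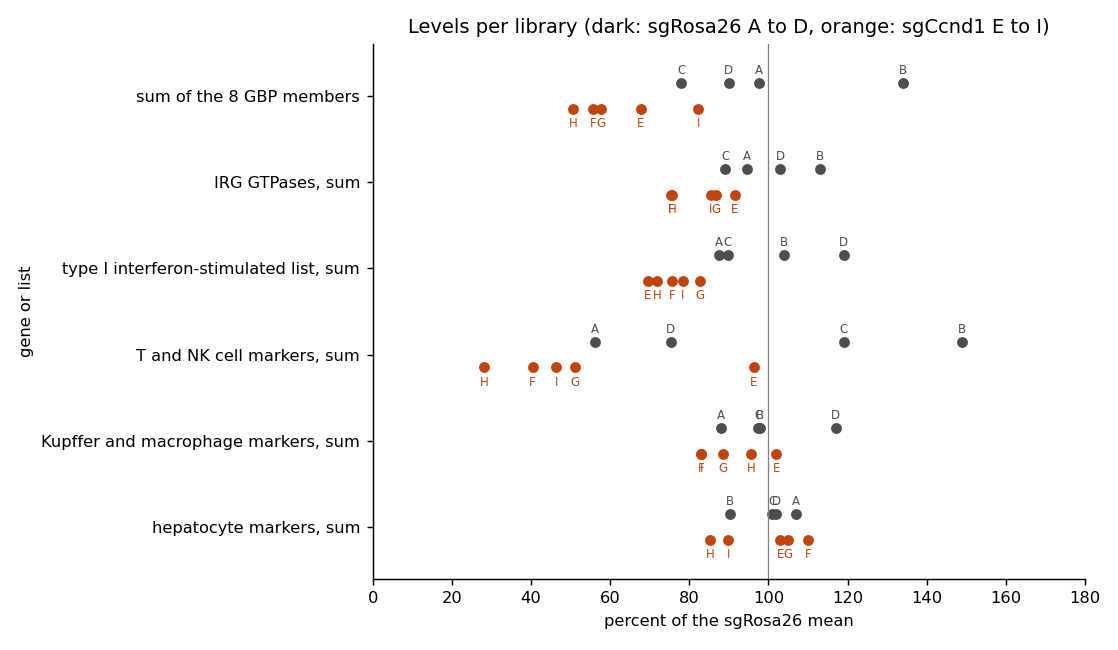
Level in each library as a percentage of the sgRosa26 mean for the sum of the 8 members, 2 summed gene lists of the pathway and 3 summed marker lists, with sgRosa26 libraries A to D dark and sgCcnd1 libraries E to I orange. The summed members range from 50.6% in H to 134% in B, T and NK cell markers from 28.1% in H to 149% in B, and hepatocyte markers from 85.2% to 110.0%.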

How the data were processed

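The deposited table gives a never-negative signal, which the authors call normalized counts, for 27179 Entrez genes in 9 libraries. The submitters' processing notes name Trim Galore 0.6.7, HISAT2 2.2.1, featureCounts 2.0.3 and DESeq2, with the builds mm10 and GRCm38. Annotation, strand setting and the treatment of reads with several matches are not given in the sources used here. In every library 100% of values were whole multiples of 1 number (within 0.02 of a read), so whole reads were recovered for count models. Count models were also run without library H, which stood apart in its Y-linked genes, an alternative chosen after seeing the data. Columns name a guide target and an animal number that no label holds, without a replicate number, and were matched to groups only.

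From the deposited signal, log2(normalized count + 1) was tested with limma 3.58.1 (R 4.3.3), trended and two-sided, over 12993 genes with a mean of at least 10, with Benjamini-Hochberg adjustment over all of them. Fold changes on this scale understate changes of low genes. Alternatives were pseudocounts of 0.1 and 10, a minimum mean of 100 or none, quantile or 75th percentile scaling, robust eBayes, edgeR 4.0.16, DESeq2 1.42.0 and leaving out each library. Each procedure was also run on simulated counts for these 12993 genes, from which nothing is quoted here. Recovered reads per member and library ran from 23 (Gbp5) to 488 (Gbp7). No value here separates molecules from duplicate reads.

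The members and lists were chosen with earlier results of these data known. Named were all Gbp genes, the targeted loci, pathway genes picked by role, the 3 most abundant genes of 4 lists, and the 10 genes most like the members. One gene picked by role and 1 of those 10 are not reported here. Cell type marker lists covered 9 cell types. Transcript lengths and shared 75-base stretches came from GENCODE M21, promoters and positions from RefSeq (GRCm38.p6).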

Additional observations from a re-analysis of the deposited data

Results flagged for a closer look

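Of 114 groups of values examined, 7 had a library far from the others of its group, where chance gives about 1 in 20, or 5.7. Among the members, Gbp7 stood at 376.1 normalized counts in sgCcnd1 library I while the other 4 lay at 239 to 268. The pseudogene Gbp11 was at 144.9 in library H of the same group against 45.7 to 68.5, although H was the lowest of the group for 5 of the 8 members. In library G, 3 other genes stood high: Socs3 at 171.3 normalized counts (others 43.5 to 73.0), Ifnar2 at 1450.0 (920 to 1064) and Apol9b at 1416 (1074 to 1159). In sgRosa26, Ifngr2 was at 244.7 in library D against 325 to 327, and library A had 12.25 M reads against 16.2 to 16.6 M.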

How the results depend on the processing

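The 8 members kept a negative log2 fold change in all 164 values over 21 alternatives (4 members enter with a minimum mean of 100), between -1.33 and -0.19, and the median of the members ranged from -0.77 to -0.53 on leaving out 1 library at a time. The summed members ranged from 57.9% to 70.9% of the control in those fits and stood at 60.0% per kilobase. The median r of member pairs ranged from 0.60 to 0.73.

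Counts of calls depended on the tool, and the cause was not tested. Members called lower, 0 by limma, were 2 by DESeq2 and 1 by DESeq2 without H. Genes called lower, 1 by limma, were 2 with quantile normalization, 76 by DESeq2, 25 by DESeq2 without H, 0 by edgeR without H and 0 to 2 when a library was left out. Genes called higher, 0 by limma, were 41 by DESeq2 and 16 without H. DESeq2 called lower 2 genes of the JAK, STAT and IRF list (1 without H), 3 IRG GTPases (0 without H), 5 other interferon-gamma targets (2 without H) and 10 of the type I list (4 without H), and quantile normalization made 1 call among the other interferon-gamma targets.

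Of the 36 other named genes, 9 changed sign somewhere, each far from the threshold. Ifnar2 was at -0.02 with quantile and -0.01 with 75th percentile scaling, Jak1 at -0.02 and Casp1 at 0.02 with quantile scaling, and without H edgeR and DESeq2 put Gbp2b at 0.12 and Atl1 at -0.01. When a library was left out, Gt(ROSA)26Sor ranged from -0.11 to 0.16, Ifnar2 from -0.08 to 0.11, Jak1 from -0.02 to 0.13, Socs3 from -0.46 to 0.02, Casp1 from -0.26 to 0.05, Gsdmd from -0.13 to 0.01, Atl1 from -0.05 to 0.12, H2-K1 from -0.15 to 0.04 and Gbp2b from -0.43 to 0.12. No paired analysis was possible because replicate numbers are missing from the column names.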

Other observations

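Marker lists not described above gave the following values, with 0 genes called by limma, edgeR or DESeq2 in each. B and plasma cell markers were negative in 9 of 9 genes tested, with a median log2 fold change of -0.41 and 1 gene lower at an unadjusted limma p under 0.05. Stellate cell markers were negative in 8 of 9, with a median of -0.27 and 3 lower at an unadjusted p. Their deviations from the group means had a median r of 0.65 with the mean of the GBP members over 9 libraries, beside 0.47 for cholangiocyte markers, 0.46 for monocyte, neutrophil and dendritic cell markers, 0.45 for T and NK cell markers, 0.35 for red cell genes, 0.25 for endothelial markers, -0.01 for B and plasma cell markers, -0.07 for Kupffer cell and macrophage markers and -0.18 for hepatocyte markers. Cholangiocyte markers had a median log2 fold change of -0.10 over 4 genes tested of 6 (0.13 without B and 0.02 without H), with 1 lower at an unadjusted p, and red cell genes of 0.05 over 4 (0.21 without B and 0.18 without H), with 0.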
